A study of Arabidopsis thaliana with 12 samples.

Results

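The steroid hormone progesterone (PO), a mammalian progestogen that plants also contain, was applied for 1 h to *A. thaliana* seedlings, and the shoot transcriptome was compared with that of mock-treated seedlings. The comparison takes the 4 libraries labelled PO and the 4 labelled DMSO out of 12 libraries in all. The other 4 received testosterone (TO). Every group was wild type Col-0, was moved at 7 days (one of the growth notes gives 10 days) to PNM medium for 2 days of adaptation, and gave leaves for polyA-enriched RNAseq. PO and TO were given at 10 µM in 0.12% DMSO, and the mock group received 0.12% DMSO alone. Of 38618 loci in the count table, 23203 had enough reads to be tested. The question was which functions rose and fell beyond the few strongest loci, and how alike the 4 PO replicates were.

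A plant cell that meets a foreign lipophilic compound usually treats it in stages. Cytochromes P450 and reductases expose or change a reactive group, UDP-glycosyltransferases (UGTs) and glutathione transferases (GSTs) attach a sugar or glutathione to it, and ABC and MATE transporters move the product into the vacuole or out of the cell. Many of these genes are controlled by TGA transcription factors, which bind the sequence TGACG, often present as a pair in the as-1 element. Plants also inactivate their own steroid hormones, the brassinosteroids (BRs), by glycosylation and P450 oxidation.

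Total counts per library ran from 50443138 to 60728111 in DMSO and from 45185769 to 63445014 in PO. Leaf markers were abundant, summing to 46953 to 57550 CPM (counts relative to the library total, scaled by TMM) in DMSO and 44169 to 50940 in PO over 10 genes. The 13 root markers summed to 4.24 to 7.07 CPM in DMSO and 4.80 to 10.5 in PO, and the 7 floral MADS-box genes to 13.0 to 31.4 and 17.8 to 26.7, nearly all of it from PI and SEP3. No marker of root or flower had an unadjusted p under 0.05 between PO and DMSO, and 4 of the leaf markers did, all of them photosynthesis genes with lower values that are taken up with their lists.

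Detoxification genes were the main group that rose. Every direction given here follows the treatment named in the library labels. The study prints the opposite sign for named loci of this comparison, and the files hold nothing that settles which is right, so if the labels of steroid and mock were exchanged, every rise would be a fall and every fall a rise. At an adjusted p under 0.05 (edgeR quasi-likelihood test, Benjamini-Hochberg over all tested loci) 37 loci rose and 2 fell, which is 0.159% and 0.00862% of the loci tested. In all 37 every PO library lay above every DMSO library, a separation that 2.85% of all tested loci showed. The 37 were picked by a test on these same libraries, so their separation is not separate evidence. The rises ran from a logFC (log2 of PO over DMSO) of 0.57 to 3.02, with a median of 1.12. Of the 33 protein-coding loci among them, 16 belonged to 6 lists of detoxification and transport genes: 6 UGTs, 3 GSTs, 3 cytochromes P450, 1 ABC transporter, 1 MATE transporter and 2 reductases. These 6 lists, chosen with earlier results of these data known, held 438 of the 23203 loci tested. The other 17 belonged to none of them. In bulk tissue such as this, more cells of a type and more RNA per cell cannot be told apart. The plot of the called loci by library shows the level of each gene.

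**Figure D1:**
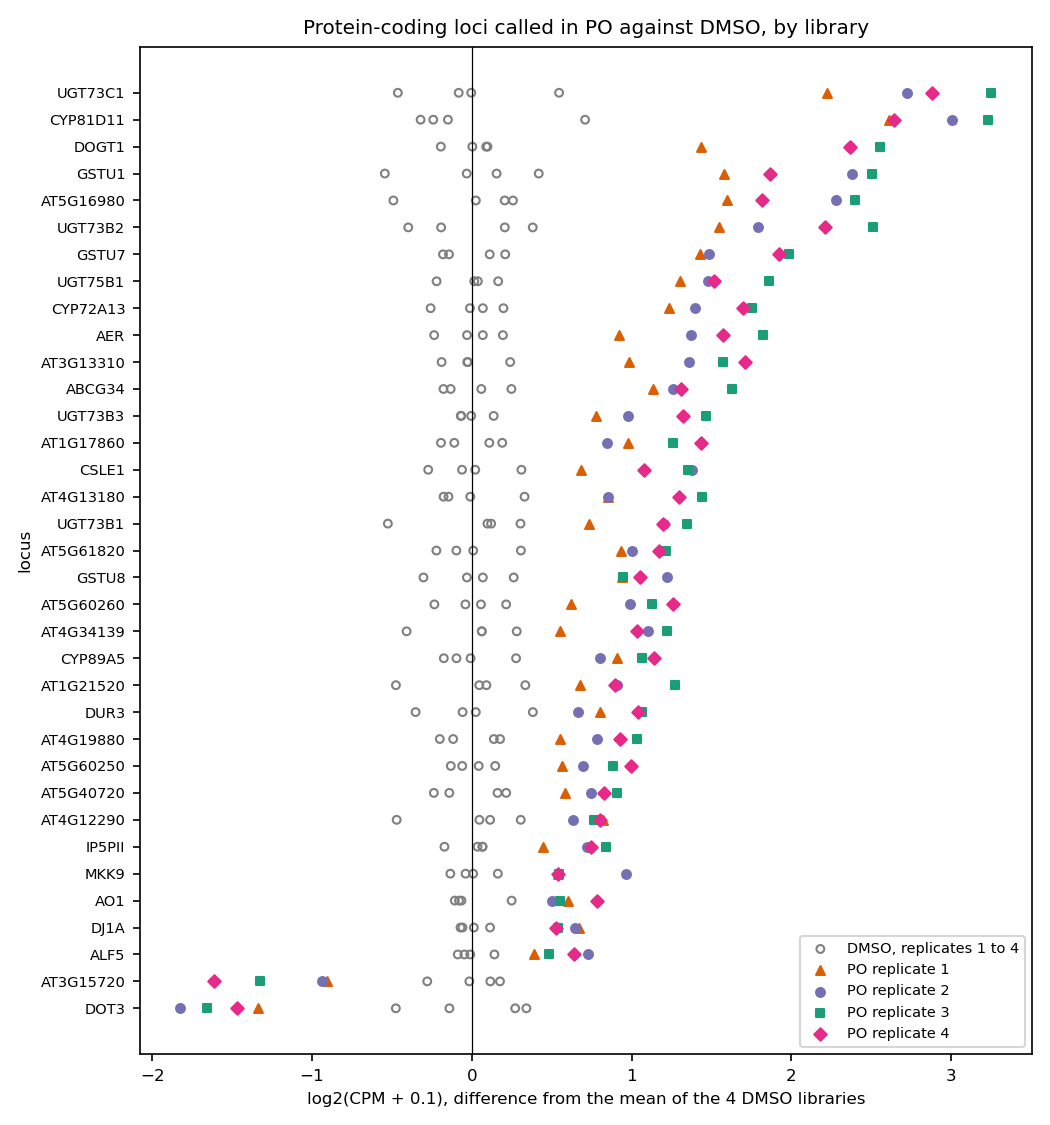
Level of each called protein-coding locus in the 4 DMSO libraries (open circles) and the 4 PO libraries (filled symbols), as the difference of log2(CPM + 0.1) from the mean of the DMSO libraries. PO and DMSO points do not overlap at any of these loci, which were picked by a test on these same libraries. PO replicate 1 (triangles) was the PO library nearest to DMSO at 29 of the 37 loci that rose, non-coding loci and overlapping pairs included.

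The UGTs held the most called members. Among 54 tested, 6 rose and none fell, and 18 were higher and 3 lower at an unadjusted p under 0.05 (33.3% and 5.56%, against 5.96% and 6.16% of all tested loci). Their median logFC was 0.16, against -0.01 for all tested loci. The strongest rises came from 2 tandem clusters. On chromosome 2, DOGT1 (UGT73C5, chr2:15423172-15425129, minus strand), which glucosylates the fungal toxin deoxynivalenol as well as brassinolide, was at 4.85, 5.96, 5.92 and 5.57 CPM in DMSO replicates 1 to 4 and at 15.2, 29.1, 33.1 and 29.04 CPM in PO. All PO libraries were higher, with PO replicate 1 well under the others (logFC 2.26 ± 0.25 SE, adjusted p = 0.00172). Its neighbour UGT73C1 (chr2:15410376-15412064, minus strand) rose as well, with 0.286 to 0.677 CPM in DMSO and 2.39 to 4.97 CPM in PO, and UGT73C6, a flavonol and BR glucosyltransferase next to DOGT1, was at 4.82 to 6.25 and 7.38 to 11.2 CPM without passing the test (adjusted p = 0.174). These copies are close in sequence, so reads may have been divided unevenly among them.

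The other cluster lies on chromosome 4 and holds UGT73B1, UGT73B2 and UGT73B3, enzymes that glucosylate flavonoids and other phenolics. UGT73B2 (chr4:16345150-16347434, minus strand) was at 17.2, 19.4, 11.3 and 13.0 CPM in DMSO and 43.6, 51.6, 85.1 and 69.1 CPM in PO (logFC 2.03 ± 0.26, adjusted p = 0.00288). UGT73B3 was at 15.9, 18.3, 16.6 and 15.9 CPM in DMSO and 28.7, 32.9, 46.2 and 41.9 CPM in PO (logFC 1.17 ± 0.16, adjusted p = 0.00414). UGT73B1 was at 43.5, 77.3, 67.0 and 68.1 CPM in DMSO and 104, 144, 159 and 144 CPM in PO (logFC 1.11 ± 0.16, adjusted p = 0.0107). In each of the 3 genes the groups were apart, and PO replicate 1 was again the lowest PO library while PO replicate 3 was the highest. UGT75B1 (chr1:1645300-1647435, minus strand), which glucosylates p-aminobenzoate, was at 29.3, 35.0, 34.5 and 38.2 CPM in DMSO and 84.1, 94.95, 124 and 97.9 CPM in PO (logFC 1.55 ± 0.19, adjusted p = 0.00227). Among the UGTs with lower values, UGT71D1 (logFC -0.56 ± 0.20) and UGT85A5 (logFC -0.28 ± 0.10) had the smallest p, with adjusted p of 0.294 and 0.307.

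Some called loci were not separate measurements. AT1G05562, a non-coding RNA on the opposite strand with the same coordinates as UGT75B1, had the same count as UGT75B1 in all 12 libraries, although the libraries were made to keep strand. Reads there had been counted for both strands. The called non-coding loci AT2G08340, AT1G05347 and AT4G08935 lie opposite GSTU7, AT1G17860 and UGT73B3, AT4G34139 lies opposite UGT73B1, and AT5G60260 opposite AT5G60250. These 6 pairs reduce the 37 loci that rose to 31 separate regions.

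Of 48 tested GSTs, 3 rose and none fell, with 12 higher and 3 lower at an unadjusted p under 0.05 (25% and 6.25%, against 5.96% and 6.16% of all tested loci). GSTU1 (chr2:12631341-12632538, minus strand) was at 0.829, 1.41, 1.23 and 1.71 CPM in DMSO and 3.95, 6.94, 7.59 and 4.84 CPM in PO (logFC 2.18 ± 0.28, adjusted p = 0.00348). The nearby GSTU7 rose too, with 43.1 to 56.5 CPM in DMSO and 132 to 193 CPM in PO. GSTU8 was at 2.47, 3.70, 3.23 and 3.01 CPM in DMSO and 5.998, 7.29, 6.005 and 6.49 CPM in PO (logFC 1.06 ± 0.16, adjusted p = 0.0123). Over the whole family the median logFC was -0.02. GSTU18 (logFC -0.48 ± 0.11, adjusted p = 0.155) and GSTF12, which acts in anthocyanin transport to the vacuole (logFC -0.85 ± 0.38, adjusted p = 0.393), had the smallest p among the members with lower values. Outside the list, AT4G19880, annotated as a GST family protein, was also called (logFC 0.83 ± 0.14, adjusted p = 0.0216), a call lost with the replicate block and in 6 of the 8 fits that left out a single library.

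The cytochromes P450 showed the same contrast between a few members and the family. Among 155 tested, CYP81D11, CYP72A13 and CYP89A5 rose, and the median logFC was -0.05. At an unadjusted p under 0.05, 15 were higher and 7 lower (9.68% and 4.52%, against 5.96% and 6.16% of all tested loci). That balance rested on single libraries, since 14 were higher and 16 lower without PO replicate 1, and 12 and 3 without PO replicate 2. CYP89A5 was at 23.53, 24.9, 26.4 and 32.2 CPM in DMSO and 49.9, 46.4, 55.7 and 58.7 CPM in PO, with no overlap (logFC 0.98 ± 0.15, adjusted p = 0.0163), but its call was lost in 5 of the 8 fits without a single library (adjusted p up to 0.0764). CYP81D11 was at 6.44 to 13.2 CPM in DMSO and 49.8 to 76.5 CPM in PO. CYP72A13 was at 132 to 181 CPM and 372 to 532 CPM. The smallest p among P450 genes with lower values belonged to CYP86A8, a fatty acid hydroxylase of cutin synthesis (logFC -0.32 ± 0.09, adjusted p = 0.211), and CYP71B34 (logFC -0.31 ± 0.10, adjusted p = 0.265).

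Reductases of reactive carbonyls followed the UGTs in share. Of 37 aldo-keto, alkenal and oxophytodienoate reductases, 2 rose, and the median logFC was 0.11. At an unadjusted p under 0.05, 11 were higher and 2 lower (29.7% and 5.41%, against 5.96% and 6.16% of all tested loci). AER, the alkenal reductase that saturates toxic aldehydes from oxidised lipids (chr5:5575973-5578086, minus strand), was at 88.9, 97.0, 71.9 and 83.0 CPM in DMSO and 160, 219, 300 and 252 CPM in PO (logFC 1.45 ± 0.17, adjusted p = 0.00227). Its upstream neighbour AT5G16980, a zinc-binding dehydrogenase, was at 3.78, 2.29, 3.92 and 3.32 CPM in DMSO and 10.09, 16.2, 17.7 and 11.7 CPM in PO (logFC 2.06 ± 0.26, adjusted p = 0.00292). Both genes separated the groups, with PO replicate 1 the lowest of the 4 in each. The members with lower values and the smallest p were AT1G59950, which was at or below 0.604 CPM in every library (logFC -2.0 ± 0.56, adjusted p = 0.211), and AT5G24760 (logFC -0.52 ± 0.17, adjusted p = 0.264).

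Among 101 ABC transporters, 18 were higher and 2 lower at an unadjusted p under 0.05 (17.8% and 1.98%). Without PO replicate 1 the number lower was 8. In 9 the PO libraries all lay above DMSO and in none below, against 2.85% and 2.72% of all tested loci. ABCG34, a full-size transporter of the pleiotropic drug resistance group, was the one called by edgeR, with 37.8 to 50.7 CPM in DMSO and 93.9 to 132 CPM in PO. ABCC12 was at 35.9, 34.7, 43.0 and 51.4 CPM in DMSO and 56.6, 68.0, 85.7 and 68.9 CPM in PO and lay just outside the threshold (logFC 0.76 ± 0.14, adjusted p = 0.0501). DESeq2 called 6, the others being ABCC12, ABCB11, ABCC2, ABCB4 and ABCB27, whose edgeR logFC ran from 0.30 in ABCB27 to 1.13 in ABCB11. At the other end were ABCG4 (logFC -0.54 ± 0.17, adjusted p = 0.264) and ABCG8 (logFC -0.62 ± 0.21, adjusted p = 0.277). Of 43 MATE transporters, 4 were higher and 3 lower at an unadjusted p under 0.05 (9.3% and 6.98%, against 5.96% and 6.16% of all tested loci), with a median logFC of -0.03. As a list they did not rise. ALF5, which protects roots from inhibitory compounds, was called for a small difference, from 13.2, 11.3, 11.6 and 11.9 CPM to 15.7, 19.8, 16.7 and 18.7 CPM (logFC 0.57 ± 0.10, adjusted p = 0.0404). That call was lost in 7 of the 8 fits without a single library, with the replicate block and with PO and DMSO libraries alone (adjusted p up to 0.184). AT3G21690 (logFC 0.30 ± 0.08, adjusted p = 0.204), TT12, the tonoplast carrier of flavonoid precursors in seeds (logFC -0.46 ± 0.15, adjusted p = 0.277), and AT1G73700 (logFC -1.1 ± 0.47, adjusted p = 0.374) did not pass.

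**Figure D2:**
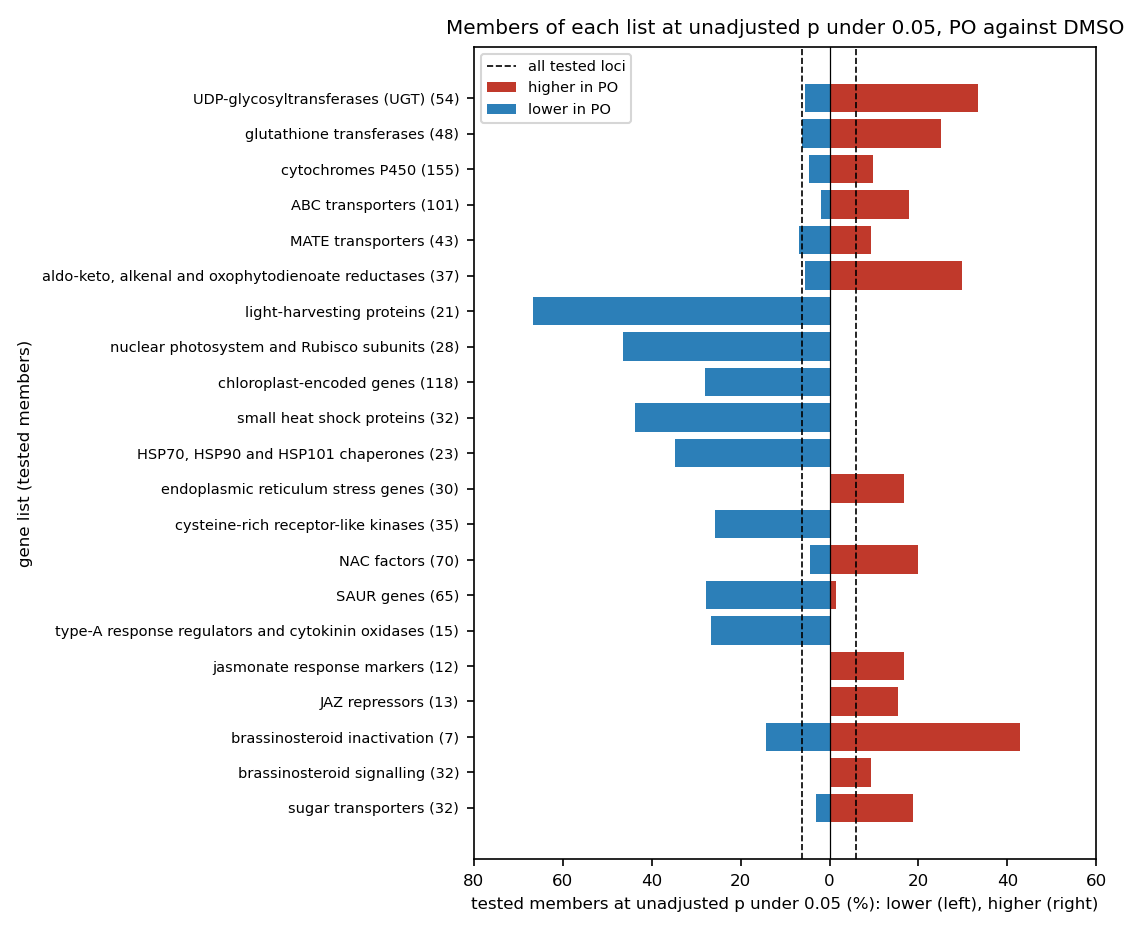
Percentage of tested members of each gene list at an unadjusted p under 0.05, higher in PO to the right and lower to the left, with the number tested in brackets. Dashed lines mark the 5.96% and 6.16% of all tested loci; UGTs reached 33.3% to the right and light-harvesting proteins 66.7% to the left.

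The 250 bases upstream of the annotated start were read for the protein-coding genes. TGACG on either strand was present in 16 of the 33 genes that rose (48.5%) and in 19.2% of 20646 tested genes. The 16 include AT4G34139 and AT5G60260, with 1 copy each, which are not measured separately from UGT73B1 and AT5G60250. The window of AT4G34139 also overlaps UGT73B1. At least 2 copies were present in 8 of the 33 (24.2%) and in 3.48% of all, where the palindrome TGACGTCA counts as 2. The arrangement TGACGNNNNNNNTGACG, chosen after the sequences were seen, stood upstream of 3 of the 33 and of 17 of all 20646 (0.0823%). TTGAC, the core of the W-box bound by WRKY factors, which can share bases with TGACG as TTGACG, was in 48.5% and 45.1%, the G-box CACGTG in 6.06% and 7.2%, and the heat shock element core GAANNTTC in 12.1% and 9.54%. A match is a description of the sequence and was not tested as a binding site. The following stretches are from genes that rose and had 2 or more copies, with no other protein-coding gene in the window, and TGACG or its complement CGTCA is in capitals (TAIR10.1, each read 5′ to 3′ on the gene's strand):
GSTU7, chr2:12618934-12618970, minus strand: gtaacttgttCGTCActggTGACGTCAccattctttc
GSTU1, chr2:12632589-12632625, minus strand: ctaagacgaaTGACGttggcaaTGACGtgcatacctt
UGT73B1, chr4:16350362-16350398, minus strand: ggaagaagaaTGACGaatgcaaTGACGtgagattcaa
UGT73B3, chr4:16344903-16344942, minus strand: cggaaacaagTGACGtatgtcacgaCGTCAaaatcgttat
AER, chr5:5578116-5578143, minus strand: acataagcagTGACGTCAtacttgataa
AT5G60250, chr5:24252045-24252107, plus strand: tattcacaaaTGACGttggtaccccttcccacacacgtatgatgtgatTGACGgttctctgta
DJ1A met the same rule, with 2 copies and 84 bases between them, and its stretch of 114 bases is not printed. GSTU1 and UGT73B1 hold the paired form with 7 bases between the copies, and GSTU7 holds it on the complementary strand. ABCG34, UGT73C1 and UGT73B2 had no TGACG in this window, so the sequence did not mark every gene that rose. Among 11 TGA factors and their partner SCL14 none was called, and 1 was higher at an unadjusted p under 0.05 (9.09%, against 5.96% of all tested loci).

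The rest of the loci that rose had varied functions. DJ1A, of a family that protects cells against oxidative stress, was at 167, 188, 165 and 175 CPM in DMSO and 276, 272, 252 and 250 CPM in PO, a small change with very little spread (logFC 0.60 ± 0.08, adjusted p = 0.00405). AT1G17860, a Kunitz protease inhibitor, was at 52.4, 55.5, 45.03 and 42.5 CPM in DMSO and 95.9, 87.4, 117 and 132 CPM in PO (logFC 1.14 ± 0.14, adjusted p = 0.00227). The stress up-regulated Nod19 protein gene AT5G61820, which overlaps AT5G61830, was at 47.7, 40.7, 44.4 and 58.7 CPM in DMSO and 90.7, 95.2, 110 and 107 CPM in PO (logFC 1.07 ± 0.13, adjusted p = 0.00238). All 3 kept PO above DMSO in every library.

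Signalling enzymes were few. IP5PII, which removes a phosphate from the second messenger inositol trisphosphate, was at 62.7, 72.4, 74.0 and 74.0 CPM in DMSO and 96.1, 117, 127 and 119 CPM in PO (logFC 0.69 ± 0.10, adjusted p = 0.00570). MKK9, a MAP kinase kinase upstream of MPK3 and MPK6, was at 10.3, 12.7, 11.4 and 11.0 CPM in DMSO and 16.5, 22.3, 16.6 and 16.5 CPM in PO (logFC 0.66 ± 0.11, adjusted p = 0.0216), and its call was lost in 3 of the 8 fits without a single library. It was the only called member among 47 genes of the MAP kinase cascade. CSLE1, a cellulose synthase-like enzyme, was at 35.9, 41.6, 44.1 and 53.9 CPM in DMSO and 69.8, 113, 111 and 91.8 CPM in PO (logFC 1.14 ± 0.17, adjusted p = 0.0107). DUR3, the proton symporter that takes up urea, was at 5.55, 4.51, 5.88 and 7.56 CPM in DMSO and 10.2, 9.23, 12.2 and 12.0 CPM in PO (logFC 0.89 ± 0.14, adjusted p = 0.0208), a call lost in 4 of those fits.

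The remaining rises were the aldehyde oxidase AO1, which overlaps AT5G03265 (logFC 0.61 ± 0.11), the copper amine oxidase AT4G12290 (0.73 ± 0.13), the Rossmann-fold protein AT4G13180 (1.12 ± 0.18), the DnaJ-domain protein AT3G13310 (1.43 ± 0.24), the zinc finger proteins AT5G40720 (0.77 ± 0.13) and AT5G60250 (0.80 ± 0.14), and AT1G21520, AT4G34139 and AT5G60260, which have no annotated function. Each of these calls was lost in 5 to 7 of the 8 fits without a single library. Both loci that fell were weakly expressed. AT3G15720, a pectin lyase-like protein, was at 3.17, 3.04, 2.29 and 2.77 CPM in DMSO and 1.44, 1.41, 1.06 and 0.849 CPM in PO (logFC -1.24 ± 0.20, adjusted p = 0.0186). DOT3, an NPH3 family protein needed for leaf vein pattern, was at 1.88, 2.54, 1.47 and 2.67 CPM in DMSO and 0.762, 0.517, 0.594 and 0.688 CPM in PO (logFC -1.74 ± 0.29, adjusted p = 0.0216). Both calls were lost when some single libraries were left out, AT3G15720 in 5 and DOT3 in 6 of 8 such fits.

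Lower values gathered in photosynthesis genes, none of which passed the test in edgeR. Among 21 light-harvesting proteins, which bind chlorophyll around the photosystems, 14 were lower and none higher at an unadjusted p under 0.05 (66.7%, against 6.16% of all tested loci). In 10 of them all PO libraries lay below all DMSO libraries (2.72% of all tested loci did). The median logFC was -0.38, and 20 of the 21 values were negative. The number lower was 8 without DMSO replicate 2 and 17 without DMSO replicate 1. LHCB6 was at 1434, 1895, 1519.8 and 1666 CPM in DMSO and 1364, 1029.7, 969.98 and 1213 CPM in PO (logFC -0.51 ± 0.13, adjusted p = 0.195). CAB2, another antenna protein, was at 1197, 1999.9, 1384 and 1723 CPM in DMSO and 1171, 1054.5, 857 and 918 CPM in PO (logFC -0.66 ± 0.19, adjusted p = 0.217). PO replicate 1 came close to DMSO replicate 1 in both. CAB1, CAB2 and CAB3 are near-identical copies, as are the LHCB2 genes, so reads may be divided unevenly among them.

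Of 28 nuclear subunits of the photosystems and Rubisco, 13 were lower and none higher at an unadjusted p under 0.05, with a median logFC of -0.23. The share lower was 46.4%, against 6.16% of all tested loci. Without DMSO replicate 2, PO replicate 2 or PO replicate 3 the number lower was 7, and without PO replicate 1 it was 19. PSBX, of photosystem II, was at 1362, 1435, 1354 and 1479.6 CPM in DMSO and 1230.4, 967, 941 and 1143 CPM in PO (logFC -0.40 ± 0.10, adjusted p = 0.190). PSAO, of photosystem I, was at 2073, 2263, 1913.5 and 1997 CPM in DMSO and 1725, 1305, 1318 and 1577 CPM in PO (logFC -0.48 ± 0.12, adjusted p = 0.195). The Rubisco small subunit RBCS1A had a logFC of 0.03 and the Rubisco activase RCA one of -0.08, so the lower values were not shared by all leaf genes. In 118 genes encoded in the chloroplast, 33 were lower (28%) and none higher, and the median logFC was -0.41 (-0.04 in TO). The TO libraries disagreed here. The list's median log2 level against the DMSO mean was -0.38 in TO replicate 1 and 0.18, 0.16 and 0.05 in TO replicates 2 to 4. In the PO libraries it was -0.19 to -0.45. The number lower was 18 without DMSO replicate 1 or PO replicate 3 and 21 without PO replicate 4. clpP, a protease subunit, was at 51.5, 41.9, 32.1 and 35.7 CPM in DMSO and 28.6, 31.6, 29.4 and 26.3 CPM in PO (logFC -0.48 ± 0.13, adjusted p = 0.203), and trnK, whose intron holds another gene, was at or below 2.46 CPM (logFC -0.83 ± 0.25, adjusted p = 0.236).

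Library composition moved with these values. Chloroplast-encoded loci made up 0.850% to 1.25% of counts in DMSO, 0.579% to 0.808% in PO and 0.746% to 1.59% in TO. The 10 most abundant loci of each library, 5 to 8 of them photosynthesis genes, took 8.03% to 9.40% of counts in DMSO and 7.13% to 8.02% in PO. Chloroplast transcripts are mostly without the polyA tail used to enrich mRNA, so their counts depend on how complete the enrichment was, and its part in the result was not tested. Short genes also had lower values, with a median logFC of -0.07 in the fifth of protein-coding genes with 1116 exonic bases or fewer and 0.04 in the fifth with 2559 or more. The median length was 1295 bases for light-harvesting genes and 1667 for all tested loci. The part of gene length was not tested.

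**Figure D3:**
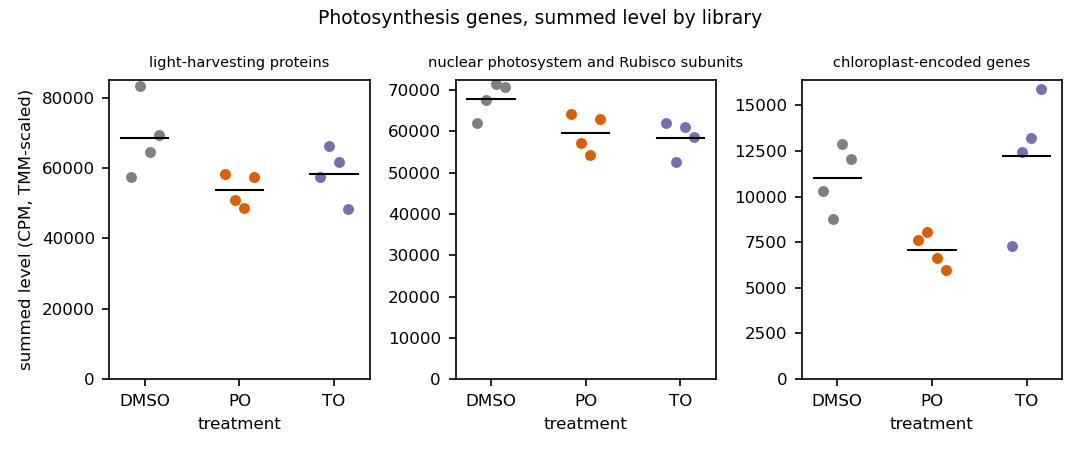
Summed TMM-scaled CPM of the light-harvesting, nuclear photosystem and Rubisco, and chloroplast-encoded lists in each library (points) of DMSO, PO and TO, with group means as lines and axes from 0. The chloroplast sum was 8795 to 12884 in DMSO and 5997 to 8034 in PO, while the light-harvesting sum overlapped between DMSO replicate 1 and PO replicates 1 and 4.

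Heat shock genes had lower values, and none passed the test in edgeR. The median logFC of 32 small heat shock proteins, chaperones that hold unfolding proteins, was -0.50. At an unadjusted p under 0.05, 14 were lower (43.8%, against 6.16% of all tested loci) and none higher. In none did the groups separate. HSP17.4 was at 194, 149, 58.3 and 89.0 CPM in DMSO and 45.5, 26.6, 66.3 and 57.3 CPM in PO (logFC -1.33 ± 0.32, adjusted p = 0.170), and the mitochondrial HSP23.6-MITO was at 33.5, 20.3, 8.01 and 11.2 CPM in DMSO and 6.94, 4.04, 10.5 and 7.66 CPM in PO (logFC -1.33 ± 0.37, adjusted p = 0.213). DMSO replicates 1 and 2 were high in both genes, while DMSO replicate 3 lay within the PO range. The list's median log2 level against the DMSO mean was 0.47 in DMSO replicate 1, 0.12 in replicate 2, -0.23 and -0.25 in the other two, and -0.26 to -0.58 in PO. Without DMSO replicate 1 or another library its median logFC lay between -0.59 and -0.27, and 8 were lower without DMSO replicate 1. In 23 larger chaperones 8 were lower (34.8%) and none higher, with a median of -0.19. The number lower was 3 without DMSO replicate 1, 4 without PO replicate 2 and 5 without DMSO replicate 2. HSP101, which untangles protein aggregates, was at 406, 383, 213 and 279 CPM in DMSO and 249.7, 143, 209 and 208 CPM in PO (logFC -0.66 ± 0.22, adjusted p = 0.275), and HSP70T-2 had a logFC of -0.61 ± 0.18 (adjusted p = 0.236).

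Endoplasmic reticulum stress genes leaned higher. Of 30 genes, 5 were higher (16.7%, against 5.96% of all tested loci) and none lower at an unadjusted p under 0.05. The median logFC was 0.23 in PO against 0.00 in TO. PDIL1-2, which forms disulphide bonds, was at 76.3, 60.1, 94.4 and 72.5 CPM in DMSO and 89.9, 86.5, 138 and 119 CPM in PO (logFC 0.51 ± 0.19, adjusted p = 0.308), and PDIL1-1 had a logFC of 0.37 ± 0.13 (adjusted p = 0.311). The median rested on PO replicates 3 and 4, at 0.45 and 0.30 against the DMSO mean, while replicates 1 and 2 were both at 0.02. The number higher was 0 without DMSO replicate 2, 1 without PO replicate 3, 8 without PO replicate 2, and 10 without PO replicate 1 or DMSO replicate 3.

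The median logFC of 65 SAUR genes, small auxin-induced genes of cell expansion, was -0.29 (-0.10 in TO). At an unadjusted p under 0.05, 18 were lower and 1 higher (27.7% and 1.54%, against 6.16% and 5.96% of all tested loci). The number lower was 6 without DMSO replicate 1, and otherwise 12 to 24 when single libraries were left out. AT2G21210 was at 16.9, 12.9, 13.1 and 12.4 CPM in DMSO and 11.6, 8.12, 6.07 and 5.99 CPM in PO (logFC -0.80 ± 0.21, adjusted p = 0.190). SAUR20 was at 16.7, 10.7, 9.42 and 11.1 CPM in DMSO and 9.35, 5.39, 6.17 and 6.31 CPM in PO (logFC -0.82 ± 0.22, adjusted p = 0.204). PO lay below DMSO in both, with PO replicate 1 the nearest. SAUR36, a gene tied to leaf senescence, was the one with higher values (logFC 0.51 ± 0.17, adjusted p = 0.267). SAUR genes are short, with a median of 817 exonic bases, and several are near-identical copies. DMSO replicate 1 had the highest median of the 8 libraries, at 0.36 against the DMSO mean. Of 15 type-A response regulators and cytokinin oxidases, which damp cytokinin signalling, 4 were lower (26.7%) and none higher. The number lower was 2 without DMSO replicate 2 or PO replicate 3. Among the 4 were ARR9 (4.40, 5.82, 6.13 and 5.04 CPM in DMSO, 3.81, 4.34, 3.17 and 3.51 CPM in PO, logFC -0.53 ± 0.14, adjusted p = 0.208) and CKX1 (logFC -0.82 ± 0.30, adjusted p = 0.312).

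DOGT1 was the one BR gene called by edgeR, while DESeq2 also called UGT73C6 (DESeq2 adjusted p = 0.0235). None of 10 BR biosynthesis genes had an unadjusted p under 0.05, and their median logFC was -0.07. Among 7 genes of BR inactivation, 3 were higher and 1 lower at an unadjusted p under 0.05. These are 42.9% and 14.3%, against 5.96% and 6.16% of all tested loci. BAS1, the P450 that hydroxylates brassinolide, had a logFC of -0.48 ± 0.20 (adjusted p = 0.366). Of 32 BR signalling genes 3 were higher (9.38%, near the share of all tested loci) and none lower, with a median of 0.05. GSK1, a kinase of the BIN2 group, was at 53.3, 56.6, 57.3 and 64.6 CPM in DMSO and 62.2, 71.5, 73.0 and 66.2 CPM in PO (logFC 0.24 ± 0.08, adjusted p = 0.292), and BEH4, a BZR1 relative, had a logFC of 0.22 ± 0.08 (adjusted p = 0.305). Of 27 sterol biosynthesis genes 1 was higher and 1 lower (3.7% each), with a median of 0.05.

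Stress and defence regulators were mixed. The median logFC of 70 NAC transcription factors was 0.07. At an unadjusted p under 0.05, 14 were higher and 3 lower (20% and 4.29%, against 5.96% and 6.16% of all tested loci). Without PO replicate 2 the number higher was 9. NAC047 was at 15.9, 16.5, 25.9 and 22.2 CPM in DMSO and 22.8, 47.9, 49.0 and 46.7 CPM in PO, where PO replicate 1 lay within the DMSO range and the other 3 did not (logFC 1.05 ± 0.23, adjusted p = 0.126). The membrane-bound NTM1 was at 2.84, 2.58, 4.05 and 3.44 CPM in DMSO and 4.27, 5.86, 6.75 and 5.62 CPM in PO (logFC 0.80 ± 0.17, adjusted p = 0.116). NAC097 (logFC -0.72 ± 0.23, adjusted p = 0.264) and LOV1 (logFC -0.44 ± 0.16, adjusted p = 0.319) had the smallest p on the lower side. Of 35 cysteine-rich receptor-like kinases 9 were lower (25.7%) and none higher, with a median of -0.24. The number lower was 4 without DMSO replicate 2 and 5 without DMSO replicate 1 or PO replicate 2. The smallest p belonged to EP1 (logFC -0.59 ± 0.19, adjusted p = 0.264) and CRK31 (logFC -1.26 ± 0.43, adjusted p = 0.292).

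All 12 jasmonate response markers had a positive logFC, with a median of 0.44 (0.97 in TO). But only 2 were higher at an unadjusted p under 0.05 (16.7%, against 5.96% of all tested loci), and 5 without PO replicate 3. ST2A, a sulphotransferase acting on hydroxyjasmonate, was at 8.07, 9.78, 4.54 and 8.44 CPM in DMSO and 12.9, 17.6, 7.89 and 17.1 CPM in PO (logFC 0.85 ± 0.29, adjusted p = 0.287), and CORI3 had a logFC of 0.62 ± 0.26 (adjusted p = 0.372). PO replicate 3 stood apart here: the list's median against the DMSO mean was 0.80, 0.86 and 0.36 in PO replicates 1, 2 and 4 and -0.21 in replicate 3. TIFY7, a JAZ repressor induced by jasmonate, gave 93.4, 108, 43.9 and 70.1 CPM in PO against 50.4, 51.7, 56.7 and 52.8 CPM in DMSO (logFC 0.58 ± 0.21, adjusted p = 0.309), so its PO replicate 3 was the lowest of all 8 libraries. JAZ11 varied less (logFC 0.20 ± 0.09, adjusted p = 0.370).

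The median logFC of 32 sugar transporters was 0.13. At an unadjusted p under 0.05, 6 were higher and 1 lower (18.8% and 3.12%, against 5.96% and 6.16% of all tested loci). The number higher was 3 without PO replicate 4 and 9 without PO replicate 1. STP7 was at 10.2, 10.5, 13.1 and 13.2 CPM in DMSO and 17.6, 16.6, 14.6 and 17.1 CPM in PO (logFC 0.48 ± 0.11, adjusted p = 0.126), SWEET2 had a logFC of 0.59 ± 0.19 (adjusted p = 0.264) and STP9 one of -0.60 ± 0.24 (adjusted p = 0.360). The largest list, 331 cytosolic ribosomal proteins, had 5 higher and 9 lower members (1.51% and 2.72%) and a median of -0.03.

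**Figure D4:**
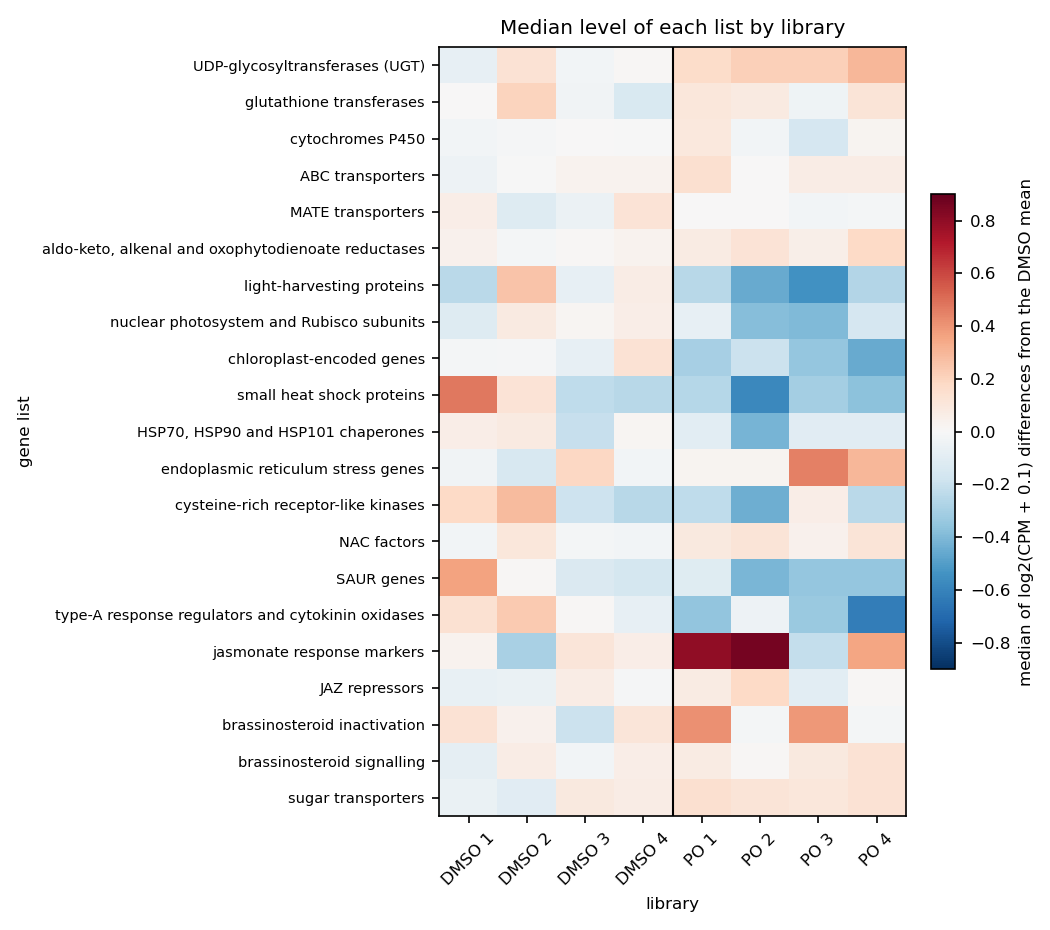
Median over each list of the difference of log2(CPM + 0.1) from the DMSO mean, for the 4 DMSO and the 4 PO libraries (columns). UGTs were at 0.17 to 0.30 in every PO library and light-harvesting proteins at -0.25 to -0.55, whereas jasmonate markers ranged from -0.21 in PO replicate 3 to 0.86 in PO replicate 2.

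The 4 PO replicates gave rises of different size. Over the 37 loci that rose, the median log2 level against the DMSO mean was 0.92 in PO replicate 1, 1.1 in replicate 2, 1.35 in replicate 3 and 1.29 in replicate 4. PO replicate 1 was nearest to DMSO at 29 of these loci and replicate 3 was the highest at 24. The 37 include the 6 overlapping pairs, so some reads entered these counts and medians more than once. On the first principal component of the 8 libraries (27.97% of the variance) PO replicates 2, 3 and 4 lay at 32.2, 25.4 and 37.7, and PO replicate 1 at -7.64, inside the DMSO range of -56.2 to -1.39. PO replicate 3 stood alone on the second component (15.3%) at 48.9, where the next library was at 17.8. DMSO replicate 1 was the farthest from PO on the first component.

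Calls depended on which library was present. Without PO replicate 1, 104 loci were called higher and 40 lower, which is 0.443% and 0.170% of the loci tested there. All 39 loci called with every library were among these 144. The calls added in the lists described included UGT76B1 (logFC 1.57 with all libraries), ABCC12, NAC047 and NTM1 on the higher side, and PSAH2 (logFC -0.43) and SAUR63 (logFC -0.74) on the lower side. Each of the other 7 fits without a single library called 23 to 37 loci higher and 0 to 4 lower, and 20 loci were called in all 8 fits. These 20 included all 6 UGTs, AER, GSTU1, GSTU7, CYP81D11, CYP72A13, ABCG34, DJ1A and IP5PII. The tool also mattered, since DESeq2 called 187 loci higher (0.806%) and 134 lower (0.578%), including all 39. Its higher calls held 10 UGTs, 8 GSTs, 5 cytochromes P450, 6 ABC transporters, 6 reductases and 3 NAC factors. Its lower calls held 2 light-harvesting genes (LHCB6 and CAB2), 3 nuclear photosystem genes (among them PSBX and PSAO), 1 chloroplast-encoded gene, 2 small heat shock genes (among them HSP17.4) and 4 SAUR genes. It made no call among the endoplasmic reticulum stress, cysteine-rich kinase, jasmonate marker, JAZ, BR biosynthesis and BR signalling genes.

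**Figure D5:**
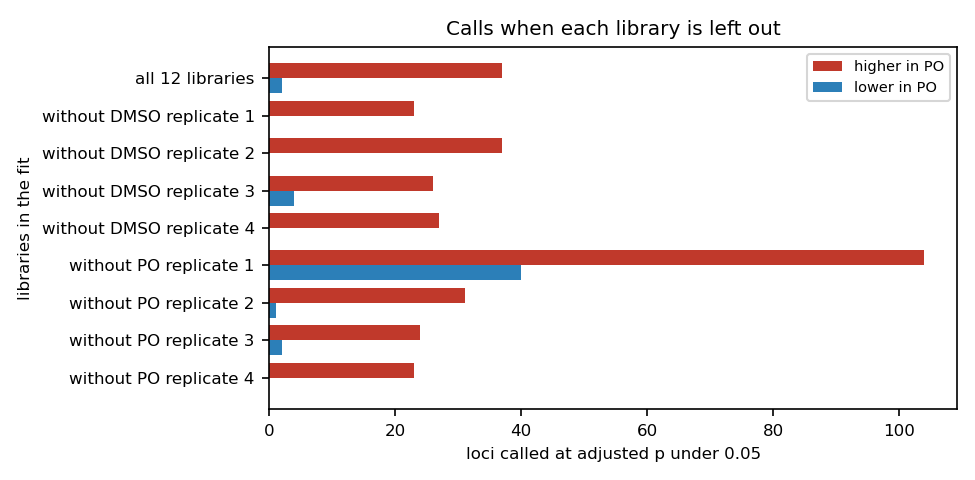
Number of loci called higher (red) and lower (blue) in PO at an adjusted p under 0.05 with all 12 libraries and with each DMSO or PO library left out in turn. Leaving out PO replicate 1 gave 104 and 40 calls, and every other fit gave 23 to 37 and 0 to 4.

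TO was given at the same dose and time and shares the 4 DMSO libraries with PO, so the logFC values of the steroids against DMSO are only set side by side. The direct contrast of PO with TO called no locus in edgeR (smallest adjusted p = 0.628, with 7.68% of tested loci at an unadjusted p under 0.05). Of the 39 loci called in PO, 33 were also called in TO against the same DMSO libraries. All 37 loci that rose had a TO logFC above 0, where the median TO logFC of all tested loci was 0.0004. Both contrasts use the same DMSO values, so part of this overlap is built in, and how much was not tested. The median logFC in PO and TO was 0.16 and 0.15 for UGTs and -0.23 and -0.21 for nuclear photosystem and Rubisco subunits. For small heat shock proteins it was -0.50 and -0.32, for SAUR genes -0.29 and -0.10, and for endoplasmic reticulum genes 0.23 and 0.00. Among the 39 loci, 5 had an unadjusted p under 0.05 in the direct contrast of PO with TO. IP5PII had a logFC of 0.69 in PO and 0.37 in TO, AT5G60250 0.80 and 0.28, AT5G60260 1.03 and 0.55, AT3G15720 -1.24 and -0.26, and DOT3 -1.74 and -1.02. In the chloroplast-encoded list 34 of 118 genes had an unadjusted p under 0.05 between PO and TO, although TO replicate 1 lay within the PO range in the median of that list.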

How the data were processed

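Polyadenylated RNA from leaves was sequenced as paired reads on dUTP-marked libraries. Per the study's methods and the labels, reads were trimmed with fastp 0.23.2, aligned to TAIR10.1 with HISAT2 2.2.1 and counted with featureCounts 2.0.1. The authors deposited raw counts per locus for 12 libraries, with 0 per-sample columns unused here. Of the counts from 1 to 20, 67.8% to 72.3% per library were even, as when both reads of a pair are counted, so a count is not one fragment. The strand setting is not given in the sources used here.

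Counts were tested with edgeR 4.0.16 (R 4.3.3) by quasi-likelihood in one fit of all 3 treatments with TMM scaling, filterByExpr at a minimum count of 10 and a prior count of 0.125. The contrast was PO minus DMSO by the labels, so a positive logFC is higher in the libraries labelled PO. The study prints the opposite sign for named loci, which was left unsettled. The p-values were adjusted by Benjamini-Hochberg and called under 0.05. Each SE was worked back from the quasi-likelihood test, as the size of the logFC over the square root of its F value. On simulated counts over 23203 loci, the test recovered 91 of the 100 loci given a change of 2-fold and every one of the 100 given 4-fold, and 8 of its 199 calls were unchanged loci. Every simulated locus had the same spread (a coefficient of variation of 0.18) and no library stood apart. These shares therefore check the procedure and do not give the recovery in the real libraries. DESeq2 1.42.0, RLE scaling, other filters, a replicate block and leaving out single libraries were alternatives. Libraries of a treatment differed by more than sampling noise and each counted as 1 replicate. The study calls them biological replicates.

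Gene names came from RefSeq (99.4% of loci matched). The 68 lists were built from symbols and product names, and 21 of them are described. Lists were described by counts and medians and were not tested. Members and lists were chosen with earlier results of these data known. Named genes were every called locus and, in each list described, up to 2 members with the smallest unadjusted p under 0.05 in each direction. Genes named for the fits without PO replicate 1 or for DESeq2, and list counts, were examples chosen after their values were seen. The SEPALLATA markers SEP1 and SEP2 were matched by locus because other genes carry the same symbols.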

Additional observations from a re-analysis of the deposited data

Results flagged for a closer look

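Among the 87 loci named by the rule, in 174 groups of 4 libraries, 8 groups held 1 library far from the other 3 relative to the group's range, where chance alone gives about 1 in 20. In DMSO replicate 1, IP5PII was at 62.7 CPM (the others 72.4 to 74.0), CYP71B34 at 38.8 CPM (32.2 to 33.3), AT2G21210 at 16.9 CPM (12.4 to 13.1) and trnK at 2.46 CPM (1.37 to 1.41). In DMSO replicate 4, CYP81D11 was at 13.2 CPM (6.44 to 7.26) and AO1 at 28.6 CPM (22.3 to 23.004). In PO, MKK9 was at 22.3 CPM in replicate 2 (16.5 to 16.6) and NAC047 at 22.8 CPM in replicate 1 (46.7 to 49.0).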

How the results depend on the processing

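With DESeq2 the count of loci called higher went from 37 to 187 and that of loci called lower from 2 to 134, and the cause was not tested. Without the filter on low counts 8 loci were called lower, 4 with the replicate block and 3 with the stricter filter. Leaving out single libraries gave 23 to 104 higher and 0 to 40 lower: without DMSO replicate 1 the counts were 23 and 0, without DMSO replicate 3 they were 26 and 4, without PO replicate 3 they were 24 and 2, without PO replicate 4 they were 23 and 0, and without PO replicate 1 they were 104 and 40. Without DMSO replicate 2 or 4 no locus was called lower, and without PO replicate 2 the count was 1. Of the 23203 loci tested, those at an unadjusted p under 0.05 numbered 937 to 1739 higher (1382 with all libraries) and 947 to 1924 lower (1429 with all) when single libraries were left out, with both lowest counts without DMSO replicate 1 and both highest without PO replicate 1. Every called locus kept its direction in every alternative. ABCC12, just outside the threshold, passed with RLE scaling, both other filters, the replicate block and DESeq2. With PO and DMSO libraries alone 30 of the 39 loci were called, and 39 with RLE scaling, with no filter, with the stricter filter and with DESeq2.

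Whether replicate numbers pair the libraries was not tested. The deviations of same-numbered DMSO and PO libraries correlated across loci at 0.20, 0.00, -0.07 and 0.12. Those of differently numbered DMSO and PO libraries correlated at -0.16 to 0.15. A fit with the replicate block called 46 loci higher and 4 lower, and 36 of the 39 loci were among them, all but ALF5, AT4G19880 and DOT3. Loci near the minimum count and changes under 2-fold are limited by the 4 libraries per treatment.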
